A study of Homo sapiens with 14 samples.

Results

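The 51 genes described here encode the SR proteins, the hnRNP proteins and the protein subunits of the spliceosomal small nuclear ribonucleoproteins (snRNPs). They were taken by symbol alone, as the genes whose names start with SRSF, HNRNP, SNRP or SF3 in a table of 13734 genes. Of the 53 rows with these prefixes, 2 were left out, the pseudogene HNRNPA1P33 and the antisense gene HNRNPU-AS1. The 51 members comprised 11 SRSF, 20 HNRNP, 11 SNRP and 9 SF3 genes. The lowest value of any member in any library was 7.46, and all 51 passed the filter on low values, reaching 1 in 2 or more libraries.

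Total RNA of MDA-MB-231, a human breast cancer cell line with a mesenchymal-like character, was depleted of ribosomal RNA and sequenced in 14 libraries of 7 groups with 2 libraries each. The perturbed groups were YAP/TAZ siRNA mix 1 and mix 2, both transfected 48 h before harvest, BRD siRNA mix A and mix B, both 72 h, and JQ1, added to the medium at 1 µM for 24 h. Their references were control siRNA for the knockdowns and DMSO for JQ1. The labels state no harvest time for the control siRNA and DMSO cells. The same control siRNA libraries serve the 48 h and the 72 h knockdowns, so target and time cannot be told apart against them. All groups were the same line in the same medium with no other genetic change stated, and each siRNA mix was treated as a group of its own.

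The spliceosome removes introns from pre-mRNA and is built from snRNPs, each made of a small nuclear RNA, a ring of Sm proteins and particle-specific proteins. SF3a and SF3b are parts of the U2 snRNP, which recognises the branch site near the end of an intron. SR proteins mostly promote the use of nearby exons, whereas hnRNP proteins coat nascent transcripts and often repress exons. YAP and TAZ are transcriptional co-activators that act through TEAD factors. The BRD genes targeted here encode BET proteins, which bind acetylated histones, and JQ1 displaces BET proteins from acetylated lysines.

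Reads in genes numbered 15741695 to 37311326 per library, with a median of 23539829. Levels are given as scaled RPM, reads per 1000000 of a library size as the authors adjusted it, with no correction for gene length, so levels of different genes are not compared. YAP1 and WWTR1, which encodes TAZ, were lower after YAP/TAZ siRNA by log2 fold changes of -3.02 and -3.10, and BRD3 and BRD2 were lower after BRD siRNA by -1.58 and -0.53. With JQ1 against DMSO, BRD2 and BRD3 RNA were instead higher, by 1.91 (limma adjusted p = 3.5e-16) and 0.28 (limma adjusted p = 0.00625). YAP1 was also lower after BRD siRNA (-0.85, limma adjusted p = 2.57e-11) and with JQ1 (-0.84, limma adjusted p = 3.36e-10). The line's markers VIM, CD44, AXL and EGFR were present in all 14 libraries, and GATA3, low in this line, lay between 1.15 and 2.10 scaled RPM. ESR1, PGR and CDH1, also low or absent in this line, were not among the 13734 genes and so had no value. The same held for some markers of other cell types. These were PTPRC and CD3E of leukocytes, COL1A2, DCN and LUM of fibroblasts, and CDH5 and VWF of endothelial cells. Of the other cell type markers that had values, CD68 lay between 35.4 and 150.1 scaled RPM. The highest library had 40.3 for KDR, 27.3 for LYZ, 17.2 for COL1A1, 16.1 for PDGFRB, 14.1 for PECAM1, 4.90 for CD14 and 3.44 for CD8A. Their part in the results was not tested. Replicates of a group differed by more than counting noise (chi-square per gene 3.44 to 10.6, highest in BRD siRNA mix A). P-values set the difference of groups against the spread between replicate libraries, estimated over all 7 groups. The labels do not say that replicates were separate cultures, so that spread may be only technical. In RNA from whole cultures, fewer cells of a type and less RNA per cell cannot be told apart.

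Summed over the 51 genes, the level was 9475 ± 76.0 scaled RPM after YAP/TAZ siRNA (SD, n = 4) and 11090 ± 468 after BRD siRNA (n = 4), against 12536 ± 245 with control siRNA (n = 2). It was 11211 ± 125 with JQ1, against 15533 ± 77.9 with DMSO (n = 2 each). As a share of reads, the genes took 1.01% to 1.05% after YAP/TAZ siRNA, 1.03% to 1.096% after BRD siRNA and 1.30% and 1.32% with control siRNA. They took 1.01% and 1.04% with JQ1 and 1.48% and 1.502% with DMSO. Each perturbed group thus lay below its own reference, and the DMSO libraries lay above all others. The SNRP genes had a sum of 912 ± 11.1 in YAP/TAZ siRNA mix 1 and 1022 ± 30.9 in mix 2. It was 1323 ± 121 in BRD siRNA mix A, 1301 ± 38.1 in mix B and 1561 ± 39.3 with control siRNA (n = 2 each). With JQ1 it was 1331 ± 28.6, within the range of the BRD siRNA libraries, against 2142 ± 64.5 with DMSO. The SF3 sum behaved otherwise after BRD siRNA, with a mean of 1748 ± 28.4 in mix A, of 1725 ± 21.4 in mix B and of 1731 ± 64.1 with control siRNA, so that the groups overlapped on this scale. As a share of reads it was 0.164% to 0.171% after BRD siRNA, against 0.178% and 0.185% with control siRNA, with no overlap.

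**Figure D1:**
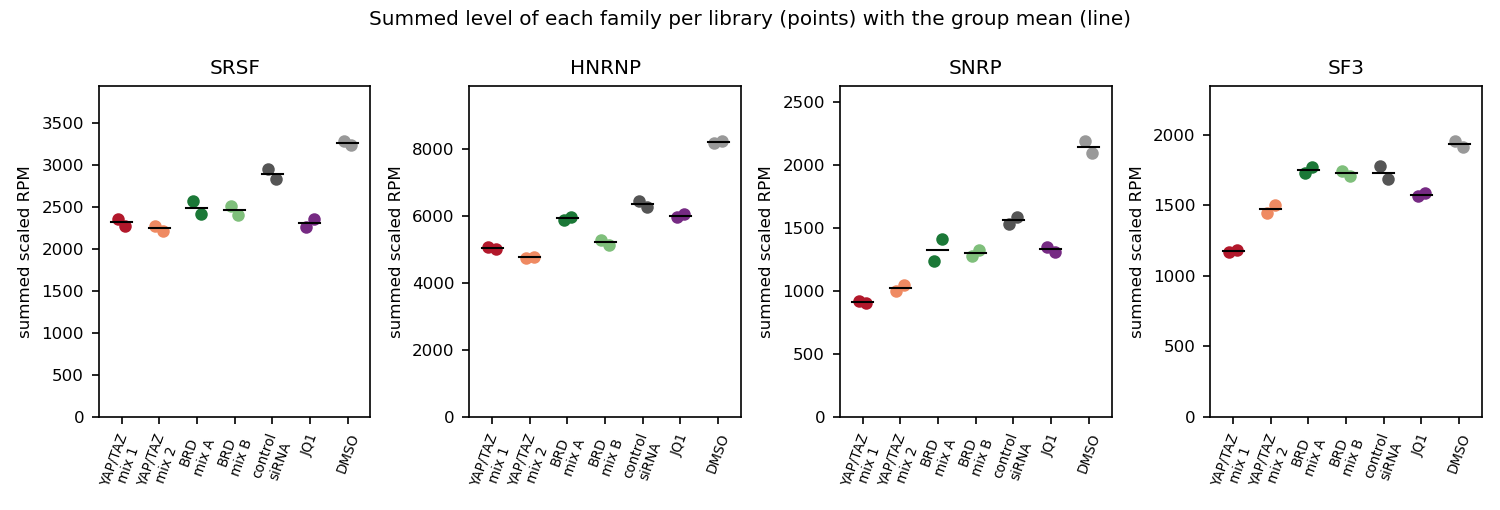
Summed level of the SRSF, HNRNP, SNRP and SF3 genes in scaled RPM (y axis, from 0) in each of the 7 groups (x axis); points are the 2 libraries of a group and lines their mean. The YAP/TAZ siRNA libraries are lowest for SNRP, at 912 and 1022 on average, and the DMSO libraries are highest in all 4 families.

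**Figure D2:**
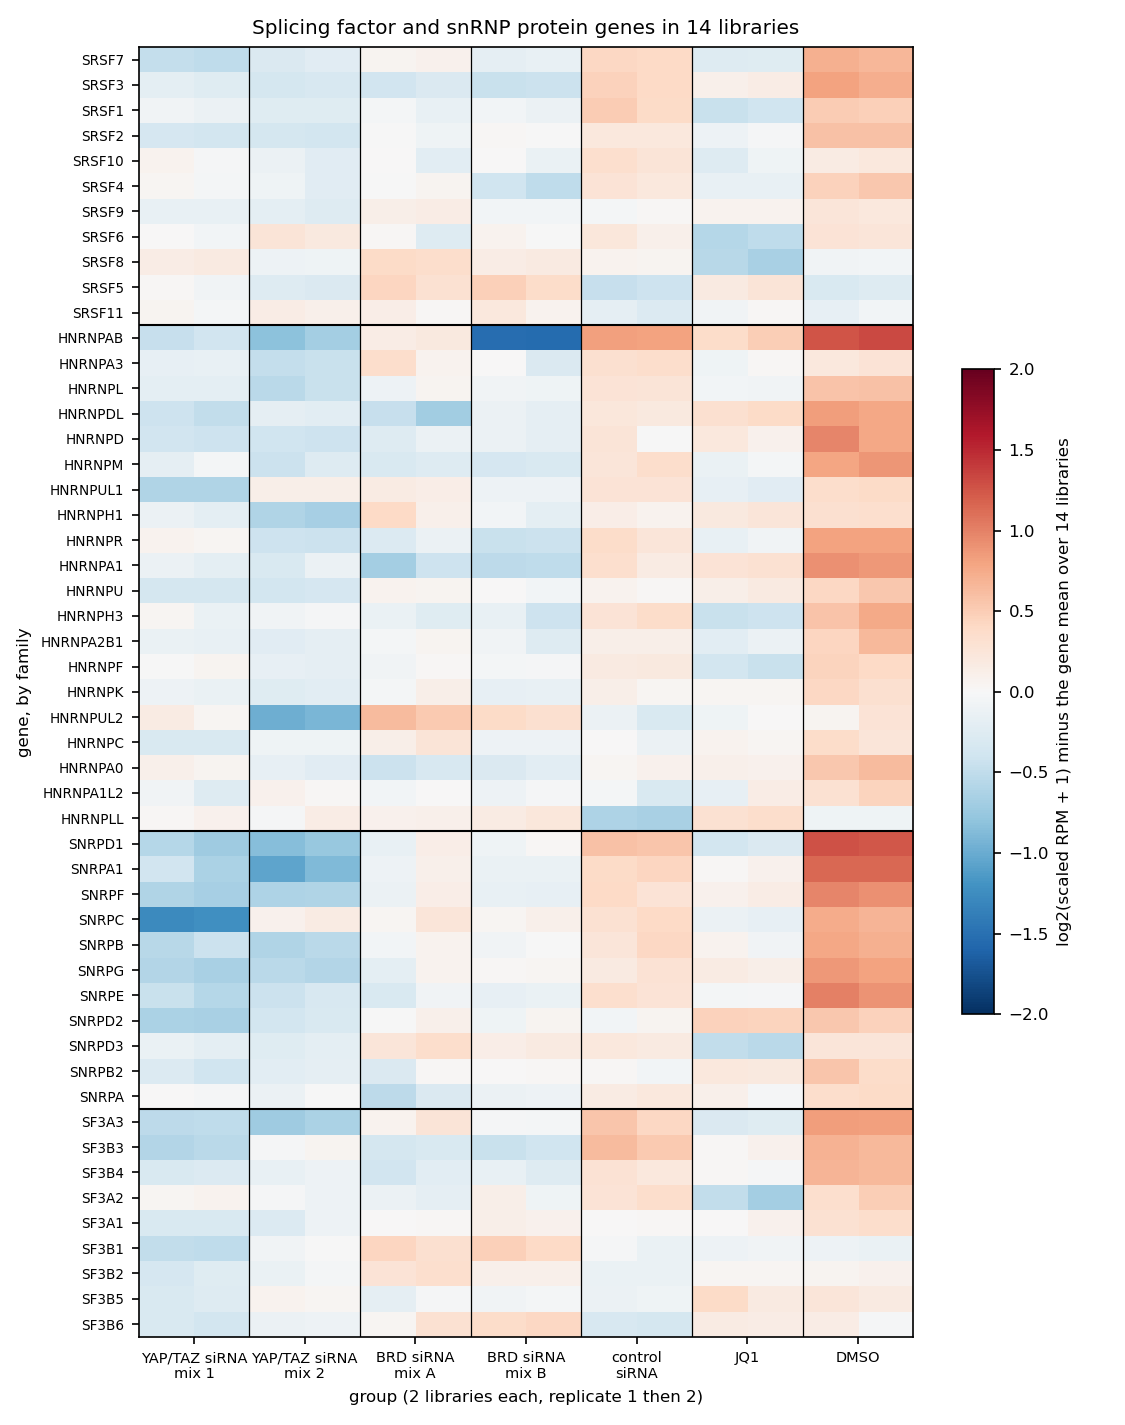
Level of each of the 51 genes (rows, by family) in each of the 14 libraries (columns), as log2(scaled RPM + 1) minus the gene's mean over all libraries; red is above and blue below the mean. Most rows are reddest in DMSO and in control siRNA, and single cells of 1 mix stand out, such as HNRNPAB in BRD siRNA mix B and SNRPC in YAP/TAZ siRNA mix 1.

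YAP/TAZ siRNA lowered most of these genes. Against control siRNA, 42 of the 51 were lower and 3 higher (limma adjusted p under 0.05), where 35.9% of all 13674 tested genes were lower and 43.1% higher. The median log2 fold change was -0.40 over the 51 genes and 0.07 over all genes. Fold changes are differences of log2(scaled RPM + 1), which understates the change of low genes, and adjusted p-values come from limma over all tested genes. In 38 genes all 4 YAP/TAZ siRNA libraries lay below both control siRNA libraries, in 3 they all lay above, and in 10 the groups overlapped; of all tested genes, 29.1% lay below and 35.6% above in this way. Each mix alone gave 43 lower and 4 higher genes (mix 1; 33.6% and 40.6% of all genes) or 40 lower and 5 higher (mix 2; 35.7% and 42.7%).

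All 11 SNRP genes were lower after YAP/TAZ siRNA, with a median log2 fold change of -0.82, and 0 were higher by limma, at an unadjusted p under 0.05, by edgeR or by DESeq2. SNRPD1, a Sm ring protein shared by the U1, U2, U4 and U5 snRNPs, had 60.6 and 55.1 scaled RPM in mix 1 and 49.7 and 53.2 in mix 2, against 137 and 134 with control siRNA. All 4 knockdown libraries were below the controls and the groups did not overlap (log2 fold change -1.30, SE 0.0656, limma adjusted p = 1.55e-13). SNRPA1, the A' protein of the U2 snRNP, had 18.1 and 15.1 in mix 1 and 11.04 and 12.6 in mix 2, against 31.6 and 32.7 with control siRNA. Both mixes lay below the controls, mix 2 lower than mix 1 (-1.15, SE 0.079, limma adjusted p = 2.58e-11). The Sm ring genes SNRPF, SNRPB, SNRPG and SNRPE followed at -0.96, -0.86, -0.82 and -0.74, and SNRPD2 and SNRPD3 at -0.49 and -0.38. SNRPB2, the B'' protein of the U2 snRNP, was at -0.25. SNRPC, the U1 protein that helps the particle bind the donor splice site, averaged -0.92 but fell unevenly, as the comparison of the mixes shows. SNRPA, the U1 A protein, changed least, with 79.7 and 77.4 in mix 1 and 72.5 and 78.5 in mix 2, against 89.0 and 91.4 with control siRNA. Its groups still did not overlap (-0.23, SE 0.0599, limma adjusted p = 0.00186). SNRPG and SNRPC have 20 and 18 pseudogenes named after them in the GENCODE annotation, so their counts may be split between copies.

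Of the 9 SF3 genes, 6 were lower, 0 were higher (0 also at an unadjusted p under 0.05, by edgeR and by DESeq2) and 3 did not pass. With plain per-million, upper-quartile or quantile scaling 1 was higher, and with mix 2 alone 2 were. SF3B1, counted as lower, was below control siRNA (488 and 455 scaled RPM) in mix 1 (355 and 350). Its mix 2 libraries (475 and 494) overlapped the controls. SF3A3, a subunit of SF3a, had 114 and 115 scaled RPM in mix 1 and 100.3 and 105 in mix 2, against 242 and 219.8 with control siRNA. Its knockdown libraries lay close together and far below the controls (log2 fold change -1.08, SE 0.0535, limma adjusted p = 1.02e-13). SF3B3, a scaffold subunit of SF3b, had 203 and 208 in mix 1 and 301 and 315 in mix 2, against 475 and 437 with control siRNA. Both mixes were below the controls, mix 1 further (-0.85, SE 0.0481, limma adjusted p = 9.28e-13). SF3B5, a small SF3b subunit, had 74.5 and 77.3 in mix 1 and 97.1 and 94.6 in mix 2, against 84.6 and 86.8 with control siRNA. The mixes lay on opposite sides of the controls, and the mean of both was -0.01 (SE 0.0584, limma adjusted p = 0.914).

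Among the 20 HNRNP genes, 18 were lower, 1 was higher and 1 did not pass. The 18 include HNRNPUL2, although its mixes lay on either side of the controls. It had 29.3 and 27.0 scaled RPM in mix 1 and 12.7 and 13.4 in mix 2, against 24.1 and 21.1. HNRNPAB, an RNA-binding protein of the A/B type, had 94.3 and 98.9 scaled RPM in mix 1 and 73.3 and 80.5 in mix 2, against 230.3 and 227 with control siRNA. It had the most negative log2 fold change of the 51 genes, with no overlap (-1.40, SE 0.051, limma adjusted p = 7.54e-16). HNRNPA3, a close relative of HNRNPA1 with 16 named pseudogenes, had 65.2 and 66.4 in mix 1 and 52.4 and 53.6 in mix 2, against 91.8 and 94.0 with control siRNA. All 4 knockdown libraries were below the controls (-0.64, SE 0.0739, limma adjusted p = 8.4e-08). HNRNPLL, known for directing exon skipping in the CD45 transcript of T cells, went the other way. It had 62.5 and 65.1 in mix 1 and 60.1 and 68.0 in mix 2, against 39.5 and 38.6 with control siRNA, with every knockdown library above the controls (0.70, SE 0.0549, limma adjusted p = 2.36e-10). HNRNPA1L2, an intronless copy of HNRNPA1, lay between 7.75 and 10.1 in the knockdown libraries, against 9.17 and 7.46 with control siRNA, overlapping (0.12, SE 0.102, limma adjusted p = 0.303). Reads of near-identical copies cannot be assigned with certainty, and HNRNPA1 itself has 74 named pseudogenes.

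Of the 11 SRSF genes, 7 were lower, 2 higher and 2 did not pass. SRSF7, which together with SRSF3 serves as an adaptor for mRNA export, had 93.9 and 92.5 scaled RPM in mix 1 and 107 and 112 in mix 2, against 174 and 174 with control siRNA. The groups were far apart (log2 fold change -0.78, SE 0.0443, limma adjusted p = 1.04e-12). SRSF3, the smallest SR protein, had 315 and 305 in mix 1 and 282 and 288 in mix 2, against 497 and 477 with control siRNA, again with no overlap (-0.71, SE 0.047, limma adjusted p = 1.31e-11). The 2 that rose were SRSF11, an SR-related splicing factor, and SRSF5. SRSF11 had 149 and 139.5 in mix 1 and 159 and 154 in mix 2, against 126 and 118 with control siRNA (0.30, SE 0.0566, limma adjusted p = 5.81e-05). SRSF5 had 263 and 244 in mix 1 and 215 and 210.2 in mix 2, against 186 and 192 with control siRNA (0.29, SE 0.0508, limma adjusted p = 2.31e-05). For both, every knockdown library was above the controls. SRSF8, a paralogue of SRSF2, had 50.9 and 51.8 in mix 1 and 42.7 and 43.1 in mix 2, against 47.9 and 47.7 with control siRNA. Here the mixes again fell on either side of the controls (-0.03, SE 0.0524, limma adjusted p = 0.664).

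**Figure D3:**
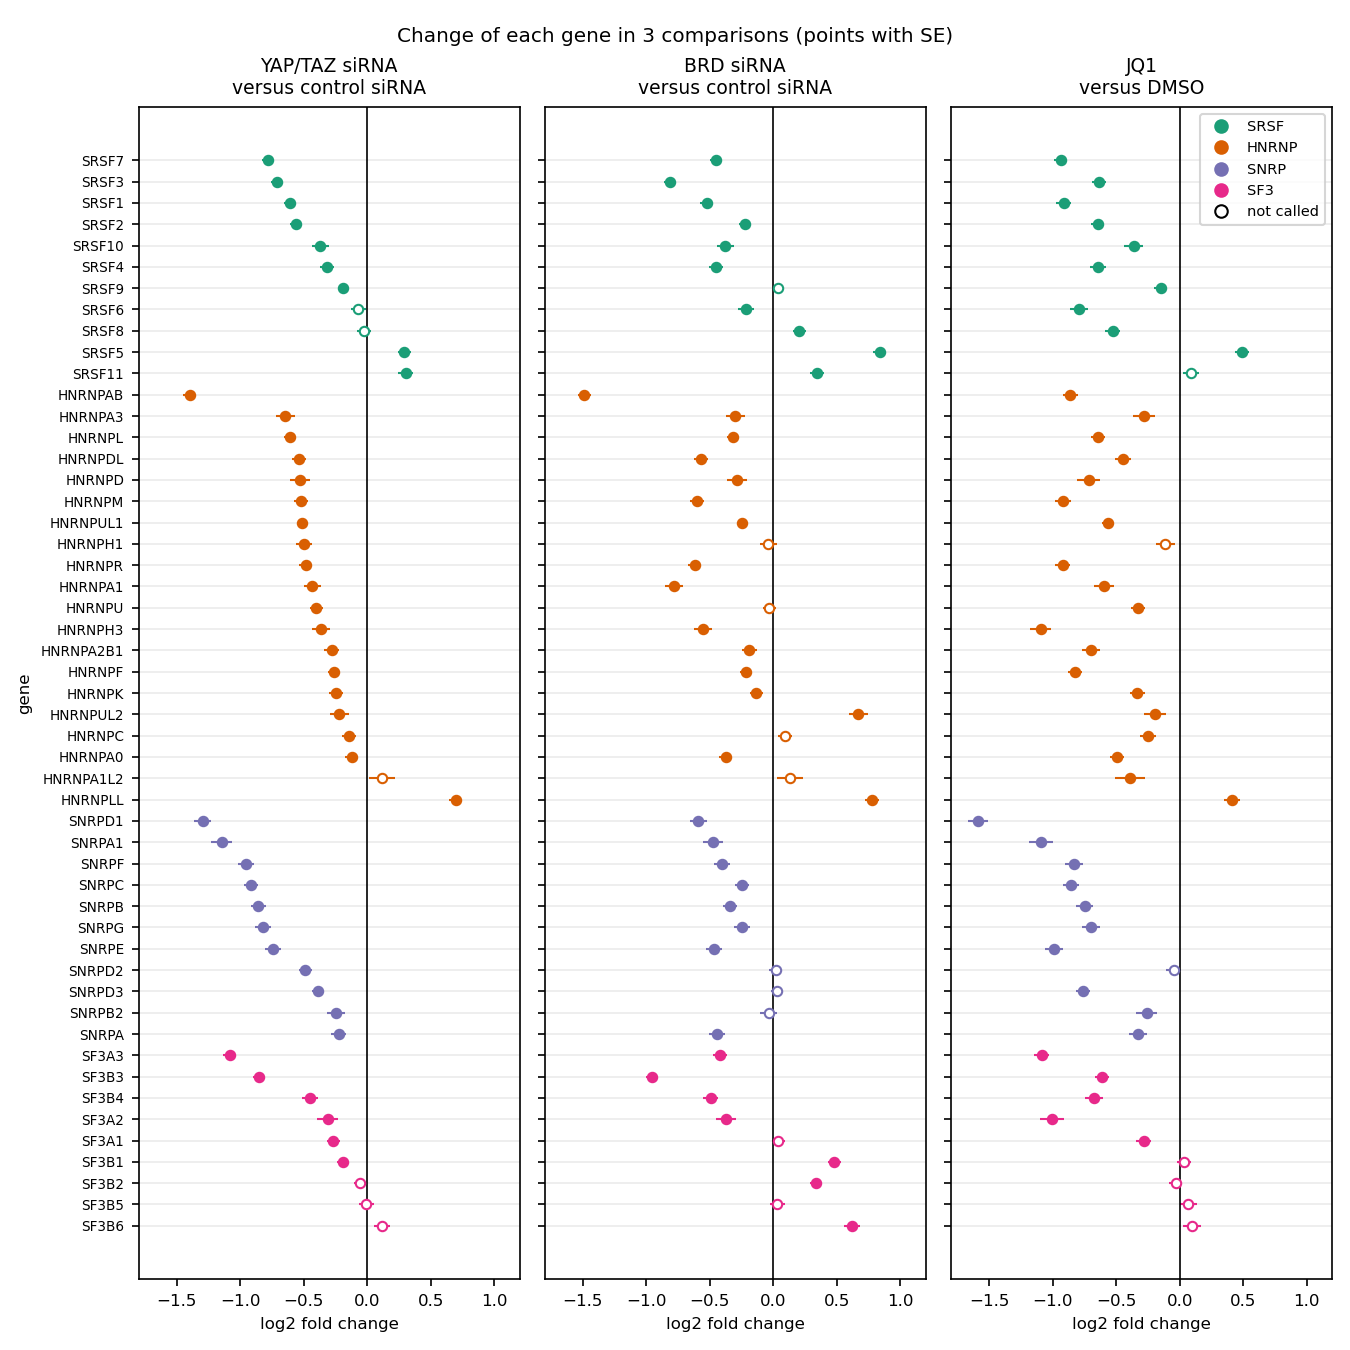
Log2 fold change of each of the 51 genes (rows, by family, ordered by the YAP/TAZ siRNA value) in the 3 comparisons, on the log2(scaled RPM + 1) scale; points show the fitted value, bars its SE, and open points genes that did not pass. Most filled points lie left of 0 in every panel, HNRNPLL and SRSF5 lie right of 0 in all 3, and SF3B1, SF3B2 and SF3B6 lie right of 0 and pass in the BRD siRNA panel.

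The SNRP genes fell together after YAP/TAZ siRNA, so the sequence before the listed gene starts was read from RefSeq (GRCh38.p14). RefSeq held the 250 bases before that start for 47 of the 51. HNRNPA1, SF3B3, SNRPD1 and SRSF2 were the others. The motif CCGGAAG, bound by ETS factors, was searched on both strands. It stood in 18 of the 47 windows (38.3%), against 1561 of 9921 windows of all tested genes (15.7%). By family it stood in 7 of 10 SNRP, 6 of 8 SF3, 3 of 19 HNRNP and 2 of 10 SRSF windows. The SNRPE and SNRPG windows, both with a match, hold the first codons of these genes, so they are not wholly upstream. The E-box CACGTG, bound by MYC and MAX, stood in 6 of 47 (12.8%), against 8.84% of all. The TEAD motif GGAATG stood in 4 of 47 (8.51%), against 9.60%, and the AP-1 motif TGANTCA in 2 of 47 (4.26%), against 4.02%. A match of letters is a description and not a binding site. The ETS motif also stood in HNRNPLL and SRSF5, which rose after YAP/TAZ siRNA, and in SF3B2 and SF3B6, which did not pass. SNRPA, SNRPD3 and SNRPF were lower and had no match. Any link between the motif and the changes was not tested. The following are the windows of 3 SNRP genes and 1 SF3 gene that were lower after YAP/TAZ siRNA, each on its gene's strand with the ETS motif in capitals, at chr15:101295249-101295498 (minus strand), chr20:2470790-2471039 (minus), chr6:34757255-34757504 (plus) and chr1:37990023-37990272 (minus).
SNRPA1: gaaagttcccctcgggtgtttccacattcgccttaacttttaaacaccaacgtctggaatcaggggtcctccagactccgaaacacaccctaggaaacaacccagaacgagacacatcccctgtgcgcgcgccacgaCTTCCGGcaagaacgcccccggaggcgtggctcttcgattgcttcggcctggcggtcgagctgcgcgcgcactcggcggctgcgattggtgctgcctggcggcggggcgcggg
SNRPB: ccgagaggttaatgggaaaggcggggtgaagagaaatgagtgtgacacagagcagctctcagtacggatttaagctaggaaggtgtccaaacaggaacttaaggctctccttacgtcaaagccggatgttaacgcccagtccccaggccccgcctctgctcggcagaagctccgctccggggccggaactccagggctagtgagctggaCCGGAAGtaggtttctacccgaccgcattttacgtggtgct
SNRPC: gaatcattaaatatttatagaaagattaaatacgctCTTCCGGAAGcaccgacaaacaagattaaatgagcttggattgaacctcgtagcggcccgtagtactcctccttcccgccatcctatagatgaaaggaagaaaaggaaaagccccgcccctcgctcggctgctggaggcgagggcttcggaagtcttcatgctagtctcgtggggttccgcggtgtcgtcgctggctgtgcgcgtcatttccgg
SF3A3: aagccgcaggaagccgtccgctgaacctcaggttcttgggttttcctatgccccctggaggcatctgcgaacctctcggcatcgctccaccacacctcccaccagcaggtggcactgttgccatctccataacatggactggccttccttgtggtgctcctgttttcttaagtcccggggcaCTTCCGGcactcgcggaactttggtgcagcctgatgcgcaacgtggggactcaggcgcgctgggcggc
The motif starts 113 bases before the gene start in SNRPA1, 41 in SNRPB and 68 in SF3A3, and in SNRPC a pair of overlapping matches on opposite strands starts 214 and 211 bases before it.

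BRD siRNA lowered most of the genes. Against control siRNA, 33 of the 51 were lower and 8 higher (limma adjusted p under 0.05), where 37.6% of all tested genes were lower and 37.6% higher. The median log2 fold change was -0.25 over the 51 genes and 0.00 over all genes. All 4 BRD siRNA libraries lay below both control siRNA libraries for 31 genes and above both for 8, and 12 overlapped, where 32.1% of all tested genes lay below and 32.4% above. Mix A alone gave 30 lower and 10 higher genes (36.1% and 37.2% of all genes) and mix B 33 and 7 (35.5% and 35.3%). The control siRNA libraries are the ones used for YAP/TAZ siRNA, so the effects of the knockdowns share them and are given side by side only.

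Of the 9 SF3 genes, 4 were lower, 3 higher and 2 did not pass after BRD siRNA. Of all tested genes, 37.6% were lower and 37.6% higher. SF3B3 had 238 and 246 scaled RPM in mix A and 224 and 231 in mix B, against 475 and 437 with control siRNA. It was near the same level in all 4 knockdown libraries, well below the controls (log2 fold change -0.96, SE 0.0481, limma adjusted p = 2.06e-13). SF3B4, an SF3b subunit that contacts pre-mRNA near the branch site, had 29.3 and 33.0 in mix A and 34.5 and 31.8 in mix B, against 46.9 and 44.4 with control siRNA (-0.49, SE 0.0613, limma adjusted p = 2.98e-07). Its groups did not overlap. SF3B6, the small SF3b protein found at the branch point, had 109.5 and 132 in mix A and 137 and 142 in mix B, against 84.7 and 83.2 with control siRNA (0.62, SE 0.0622, limma adjusted p = 1.32e-08). SF3B1, the largest SF3b subunit and a gene mutated in several blood cancers, had 666 and 623 in mix A and 691 and 655 in mix B, against 488 and 455 with control siRNA (0.48, SE 0.0492, limma adjusted p = 1.76e-08). Every knockdown library of both genes was above the controls, and SF3B2 was the other subunit that rose (0.34, SE 0.046, limma adjusted p = 1.22e-06). SF3B5 had between 81.6 and 91.2, against 84.6 and 86.8 with control siRNA, overlapping (0.03, SE 0.0584, limma adjusted p = 0.653).

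Of the 20 HNRNP genes, 14 were lower, 2 higher and 4 did not pass. HNRNPAB had 144 and 149 scaled RPM in mix A and 44.5 and 43.9 in mix B, against 230.3 and 227 with control siRNA. It again had the most negative log2 fold change of the 51 genes, but the mixes lay far apart, both below the controls (-1.49, SE 0.051, limma adjusted p = 4.61e-16). HNRNPA1, a repressor of exons that acts against SRSF1, had 68.3 and 82.7 in mix A and 76.2 and 76.8 in mix B, against 139 and 124 with control siRNA (-0.78, SE 0.0677, limma adjusted p = 1.26e-09). The groups did not overlap. HNRNPLL rose, with 64.8 and 65.6 in mix A and 68.7 and 72.0 in mix B, against 39.5 and 38.6 with control siRNA (0.78, SE 0.0549, limma adjusted p = 4.77e-11). HNRNPUL2, a relative of HNRNPU that acts at DNA breaks, had 41.0 and 38.0 in mix A and 34.5 and 32.9 in mix B, against 24.1 and 21.1 with control siRNA (0.67, SE 0.076, limma adjusted p = 8.15e-08). Both genes were above the controls in all 4 knockdown libraries. HNRNPU, which binds nuclear scaffold DNA and RNA, had 765 and 757 in mix A and 735 and 699.9 in mix B, against 769 and 743 with control siRNA (-0.03, SE 0.0504, limma adjusted p = 0.556). Its groups overlapped. The antisense gene HNRNPU-AS1 had values of its own, from 9.89 to 26.3 scaled RPM over the libraries. No strand setting is stated, so reads from any stretch that both genes share may be misassigned.

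Of the 11 SNRP genes, 8 were lower and 3 did not pass after BRD siRNA, and 0 were higher by limma, at an unadjusted p under 0.05, by edgeR or by DESeq2. SNRPD1 had 82.1 and 100 scaled RPM in mix A and 85.0 and 92.02 in mix B, against 137 and 134 with control siRNA (log2 fold change -0.59, SE 0.0656, limma adjusted p = 5.94e-08). SNRPA1 had 22.3 and 25.9 in mix A and 21.7 and 21.9 in mix B, against 31.6 and 32.7 with control siRNA (-0.47, SE 0.079, limma adjusted p = 1.71e-05). Both lay below the controls in every knockdown library. SNRPD2, a Sm ring protein, had 185 and 199 in mix A and 174 and 192 in mix B, against 178 and 192 with control siRNA, overlapping (0.02, SE 0.0519, limma adjusted p = 0.781).

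Of the 11 SRSF genes, 7 were lower, 3 higher and 1 did not pass. SRSF3 had 278 and 296 scaled RPM in mix A and 266 and 267 in mix B, against 497 and 477 with control siRNA (log2 fold change -0.81, SE 0.047, limma adjusted p = 1.89e-12). SRSF1, the founding SR protein and a known oncogene product, had 376 and 348 in mix A and 373 and 357 in mix B, against 546 and 501 with control siRNA (-0.53, SE 0.0497, limma adjusted p = 5.23e-09). Neither gene overlapped its controls. SRSF5 had 347 and 319 in mix A and 357 and 334 in mix B, against 186 and 192 with control siRNA, the largest rise of the 51 genes in this comparison (0.84, SE 0.0508, limma adjusted p = 4.35e-12). SRSF11 had 158 and 145 in mix A and 166 and 150.2 in mix B, against 126 and 118 with control siRNA (0.34, SE 0.0566, limma adjusted p = 1.51e-05). Both were above the controls in every knockdown library, and the third that rose was SRSF8 (0.20, SE 0.0524, limma adjusted p = 0.00151). SRSF9, an SR protein with a short RS domain, had 237 and 242 in mix A and 211 and 211 in mix B, against 214 and 224 with control siRNA, mix A above and mix B below the controls (0.04, SE 0.0439, limma adjusted p = 0.435).

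**Figure D4:**
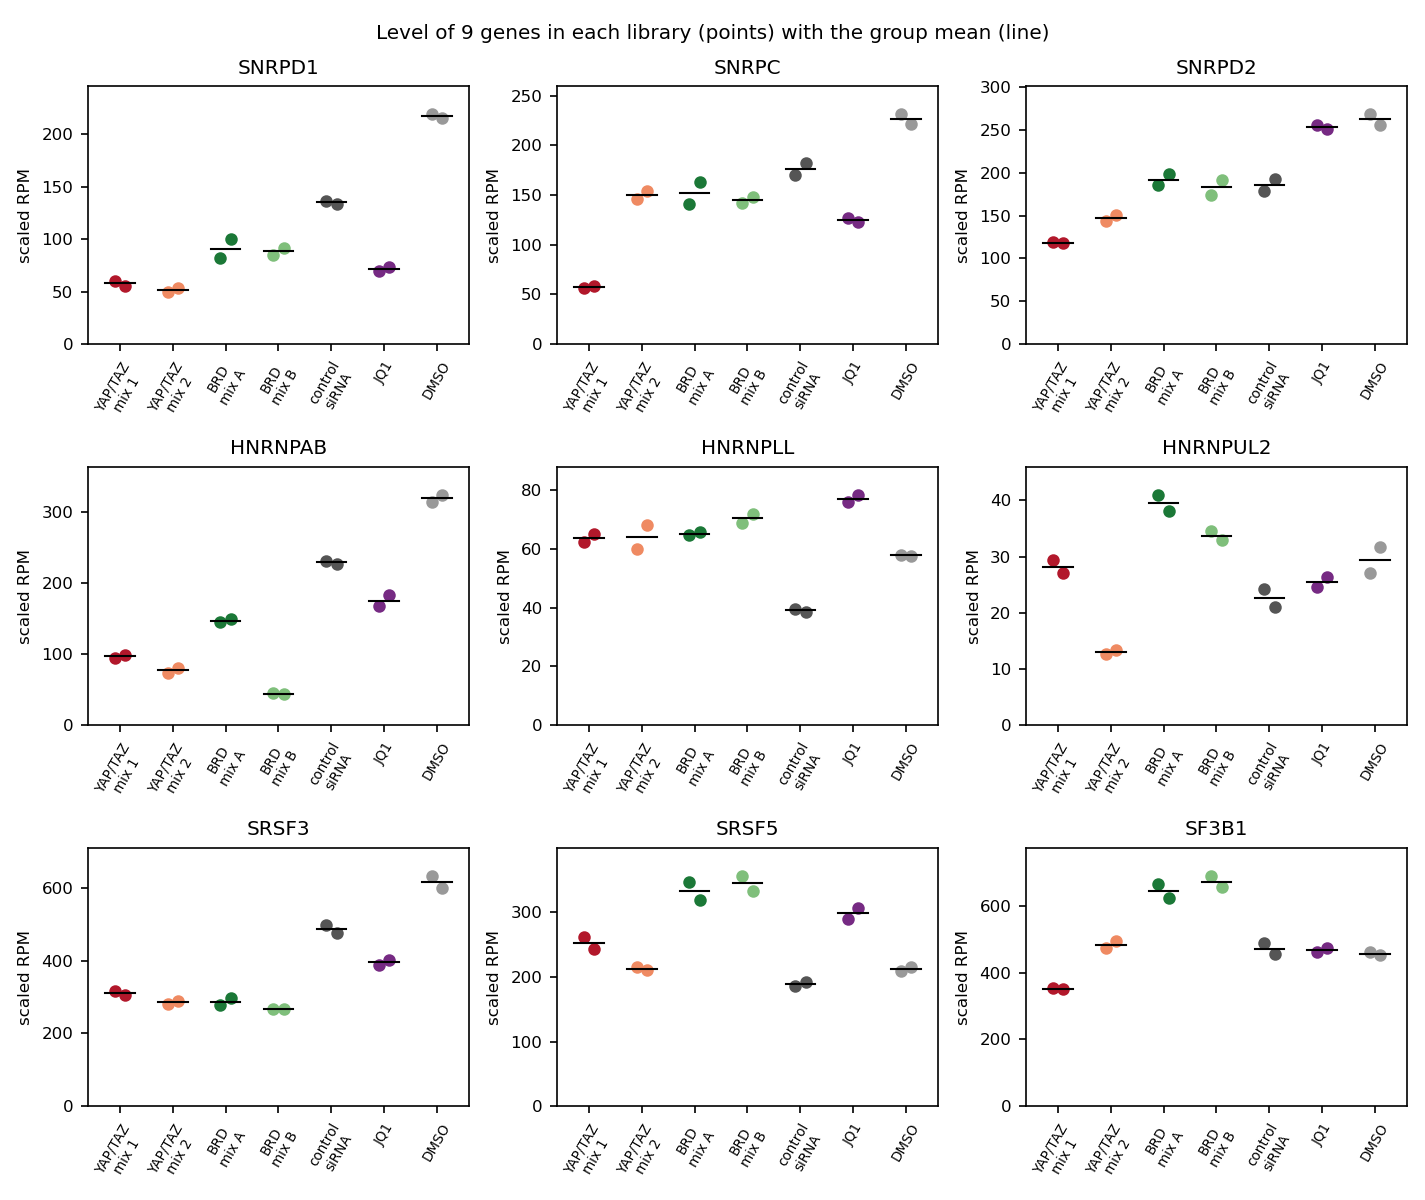
Level of 9 of the genes in scaled RPM (y axis, from 0) in each library (points) of the 7 groups, with the group mean (line). HNRNPLL lies above control siRNA and DMSO in all 10 perturbed libraries, SNRPD1 lies below its reference in all 10, and the mixes of 1 target separate for SNRPC, HNRNPAB and HNRNPUL2.

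JQ1 lowered most of these genes relative to DMSO. Against DMSO, 42 of the 51 were lower and 2 higher (limma adjusted p under 0.05), where 36.3% of all tested genes were lower and 37.6% higher. The median log2 fold change was -0.61 over the 51 genes and 0.01 over all genes. Both JQ1 libraries lay below both DMSO libraries for 44 genes and above both for 3, and 4 overlapped, where 43.4% of all tested genes lay below and 44.5% above. The level in DMSO itself was high: against control siRNA, 40 of the 51 genes were higher in DMSO and 0 lower, where 28.7% of all tested genes were higher and 25.4% lower. By limma at an unadjusted p under 0.05, 1 was lower in DMSO, and by edgeR and DESeq2 0 were. Set against the control siRNA libraries instead, an alternative chosen after seeing the data, JQ1 left 28 genes lower and 8 higher (35.4% and 37.5% of all genes), and the median became -0.27. With that reference 9 of 20 HNRNP genes were lower and 1 higher, against 18 and 1 with DMSO. Of the 11 SNRP genes 7 were lower and 2 higher, of the 11 SRSF genes 8 and 2, and of the 9 SF3 genes 4 and 3. Vehicle and transfection, and any difference in harvest time, cannot be told apart between the control groups.

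Of the 11 SNRP genes, 10 were lower with JQ1 and 1 did not pass, and 0 were higher by limma, at an unadjusted p under 0.05, by edgeR or by DESeq2. SNRPD1 had 69.8 and 73.9 scaled RPM with JQ1, against 219.9 and 216 with DMSO, the most negative log2 fold change of the 51 genes (-1.59, SE 0.0758, limma adjusted p = 9.05e-14). The JQ1 libraries were also below both control siRNA libraries, at 137 and 134 (-0.90, limma adjusted p = 8.4e-10). SNRPA1 had 24.5 and 25.4 with JQ1, against 54.6 and 54.2 with DMSO (-1.09, SE 0.0912, limma adjusted p = 7.45e-10). Here control siRNA, at 31.6 and 32.7, stood nearer to JQ1 than to DMSO. SNRPD2 had 256 and 252 with JQ1, against 269 and 256 with DMSO, close together (-0.05, SE 0.0599, limma adjusted p = 0.499). Against control siRNA, at 178 and 192, SNRPD2 was higher with JQ1 (0.45, limma adjusted p = 7.99e-07).

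Of the 9 SF3 genes, 5 were lower with JQ1, 0 were higher (0 also at an unadjusted p under 0.05, by edgeR and by DESeq2) and 4 did not pass. With quantile normalization 3 were higher, and with control siRNA as the reference 4 were lower and 3 higher. SF3A3 had 135 and 139 scaled RPM with JQ1, against 294 and 289 with DMSO (log2 fold change -1.09, SE 0.0617, limma adjusted p = 1.48e-12). SF3A2, another SF3a subunit, had 11.8 and 10.3 with JQ1, against 21.8 and 24.5 with DMSO (-1.003, SE 0.0939, limma adjusted p = 4.62e-09). For both genes JQ1 was also below control siRNA, at 242 and 219.8 for SF3A3 and 20.9 and 22.0 for SF3A2. SF3B2, an SF3b subunit, had 279 and 282 with JQ1, against 283 and 289.9 with DMSO, a difference that did not pass (-0.03, SE 0.0532, limma adjusted p = 0.611). SF3B1, which rose after BRD siRNA, had 462 and 475 with JQ1, against 463 and 452 with DMSO, overlapping (0.03, SE 0.0568, limma adjusted p = 0.597).

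Of the 20 HNRNP genes, 18 were lower with JQ1, 1 was higher and 1 did not pass. HNRNPH3, which belongs to the hnRNPs that bind runs of guanines, had 41.3 and 42.4 scaled RPM with JQ1, against 84.7 and 96.6 with DMSO (log2 fold change -1.09, SE 0.0836, limma adjusted p = 1.81e-10). HNRNPM, a regulator of splicing in epithelial-mesenchymal transition, had 162 and 172 with JQ1, against 307 and 327 with DMSO (-0.92, SE 0.0647, limma adjusted p = 4.67e-11). Neither gene overlapped its reference, and both were also below control siRNA, at 68.7 and 73.1 for HNRNPH3 and 210.0 and 226 for HNRNPM. HNRNPA1 had 134 and 136 with JQ1, against 208 and 201 with DMSO (-0.59, SE 0.0782, limma adjusted p = 7.18e-07), a JQ1 level like that of control siRNA, at 139 and 124. HNRNPLL rose once more, with 75.8 and 78.5 with JQ1, against 57.9 and 57.7 with DMSO (0.41, SE 0.0634, limma adjusted p = 6.3e-06). HNRNPH1, another guanine-run binder, had 866 and 891 with JQ1, against 944 and 956 with DMSO (-0.11, SE 0.0753, limma adjusted p = 0.186).

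Of the 11 SRSF genes, 9 were lower with JQ1, 1 was higher and 1 did not pass. SRSF7 had 109.8 and 110.5 scaled RPM with JQ1, against 215 and 208 with DMSO (log2 fold change -0.93, SE 0.0512, limma adjusted p = 8.23e-13). SRSF1 had 283 and 292 with JQ1, against 551 and 535 with DMSO (-0.91, SE 0.0574, limma adjusted p = 7.6e-12). In SRSF1, unlike most of the genes, the references lay close together, with control siRNA at 546 and 501. SRSF5 rose, with 290.2 and 307 with JQ1, against 209 and 215 with DMSO and no overlap (0.49, SE 0.0587, limma adjusted p = 1.83e-07). SRSF11, at 137 and 146 with JQ1 against 128 and 138 with DMSO, overlapped (0.09, SE 0.0653, limma adjusted p = 0.225).

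BET proteins were thus perturbed in separate ways, by siRNA and by JQ1, and these comparisons share no library. In both, 33 of the 51 genes were lower and 2, HNRNPLL and SRSF5, were higher, where 24.1% of all tested genes were lower and 24.2% higher in both. Another 7 were lower with JQ1 and did not pass after BRD siRNA, and 4, SF3B1, SF3B2, SF3B6 and SRSF11, were higher after BRD siRNA and did not pass with JQ1. HNRNPUL2 and SRSF8 were lower with JQ1 and higher after BRD siRNA, although HNRNPUL2 passed narrowly with JQ1 (-0.20, limma adjusted p = 0.0495). Across the 51 genes, which are not independent of each other, the log2 fold changes had a Pearson r of 0.74 and a Spearman rho of 0.72. Correlations over all tested genes were not computed, so these values cannot be called particular to the 51 genes. The difference of the effects was tested in the same model. With JQ1 the change was more negative in 36 genes and more positive in 3, where 29.9% and 30.2% of all genes were, and with quantile normalization in 26 and 6. The difference was most negative for SNRPD1 (-0.996, SE 0.1, limma adjusted p = 4.05e-08), HNRNPUL2 (-0.87, SE 0.116, limma adjusted p = 2e-06) and SNRPD3, a Sm ring protein (-0.79, SE 0.0727, limma adjusted p = 1.13e-08). SNRPD3 had 104 and 101 scaled RPM with JQ1, against 174 and 174 with DMSO, and 162 to 189 after BRD siRNA, against 171 and 167 with control siRNA. So JQ1 separated from its reference and BRD siRNA overlapped. The 3 genes with the more positive change were HNRNPAB (0.63, SE 0.0779, limma adjusted p = 7.12e-07), SF3B3 (0.35, SE 0.0735, limma adjusted p = 0.000387) and SRSF3 (0.18, SE 0.0717, limma adjusted p = 0.0398). The high DMSO levels enter these differences, and dose, time and means of perturbation differ, so these cannot be told apart.

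Set against YAP/TAZ siRNA, JQ1 gave a more negative change in 18 genes and a more positive one in 7, where 32.4% and 30.9% of all genes were, and with plain per-million scaling in 27 and 3. The 2 comparisons share no library. In both, 39 of the 51 genes were lower and HNRNPLL and SRSF5 higher, where 23.1% of all tested genes were lower and 24.1% higher in both. The 39 include HNRNPUL2, which was higher in YAP/TAZ siRNA mix 1 and passed only narrowly with JQ1. Across the 51 genes the log2 fold changes had a Pearson r of 0.75 and a Spearman rho of 0.68, again with no value over all tested genes. With JQ1 the change was more negative in HNRNPH3 (-0.73, SE 0.111, limma adjusted p = 7.89e-06), in SRSF6, an SR protein (-0.72, SE 0.0952, limma adjusted p = 1.27e-06), and in SF3A2 (-0.69, SE 0.124, limma adjusted p = 6.05e-05). SRSF6 had 224 and 233 scaled RPM with JQ1, against 399 and 392 with DMSO. It had 319.8 to 399 after YAP/TAZ siRNA, against 391 and 358 with control siRNA. The JQ1 libraries of SRSF6 stood clear of their reference. YAP/TAZ siRNA mix 1, at 333 and 319.8, also lay below both control siRNA libraries, whereas mix 2, at 399 and 380, overlapped them. The change was more positive with JQ1 in HNRNPAB (0.54, SE 0.0779, limma adjusted p = 4.61e-06), SNRPD2 (0.44, SE 0.0792, limma adjusted p = 5.96e-05) and HNRNPH1 (0.39, SE 0.0996, limma adjusted p = 0.00207).

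YAP/TAZ siRNA was also set directly against BRD siRNA, without the control libraries. The SNRP genes were lower after YAP/TAZ siRNA in 10 of 11 cases and higher in 1, SNRPA. Over all 51 genes 29 were lower and 10 higher, where 40.3% and 41.1% of all tested genes were. With plain per-million scaling that split became 23 lower and 19 higher and with quantile normalization 24 and 19, and with upper-quartile scaling 26 and 15, with 9 SNRP genes lower under each. Without BRD siRNA mix B replicate 2 the count of higher genes was 6. The most negative differences were in HNRNPUL2 (-0.89, SE 0.062, limma adjusted p = 2.49e-11), SNRPD1 (-0.71, SE 0.0536, limma adjusted p = 1.04e-10) and SNRPA1 (-0.67, SE 0.0645, limma adjusted p = 4.3e-09). The most positive were in HNRNPA1 (0.35, SE 0.0553, limma adjusted p = 6.17e-06), HNRNPA0, an intronless A/B-type gene (0.25, SE 0.0399, limma adjusted p = 6.02e-06), and SNRPA (0.22, SE 0.0489, limma adjusted p = 0.000361). SNRPD1 showed the order most plainly, with 49.7 to 60.6 scaled RPM after YAP/TAZ siRNA and 82.1 to 100 after BRD siRNA. The harvest times of 48 h and 72 h differ along with the target, so time and target cannot be told apart here.

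The mixes of 1 target were set directly against each other, since their effects against control siRNA share the same control libraries. Differences between mixes were common among all tested genes too. Between YAP/TAZ siRNA mix 1 and mix 2, 16 of the 51 genes were higher in mix 1 and 13 lower, where 30.9% and 34.8% of all tested genes were. That split was 12 higher and 16 lower with plain per-million scaling, 11 and 17 with quantile normalization, and 12 and 15 with upper-quartile scaling. SNRPC had 56.4 and 58.0 scaled RPM in mix 1 and 146 and 155 in mix 2, against 169.9 and 182 with control siRNA. The mixes therefore differed by -1.38 (SE 0.0645, limma adjusted p = 1.17e-13), and SNRPC in mix 2 lay just below the controls (-0.23, limma adjusted p = 0.00319). HNRNPUL1, a partner of HNRNPUL2 at DNA breaks, had 144 and 145 in mix 1 and 239 and 238 in mix 2, against 264 and 265 with control siRNA (mix 1 minus mix 2, -0.72, SE 0.0495, limma adjusted p = 5.51e-11). SF3B3 followed, with the values already given (-0.58, SE 0.0555, limma adjusted p = 1.12e-08). HNRNPUL2 had 29.3 and 27.0 in mix 1 and 12.7 and 13.4 in mix 2, against 24.1 and 21.1 with control siRNA, so the mixes lay on either side of the controls (1.05, SE 0.0877, limma adjusted p = 1.25e-09). HNRNPH1 (0.49, SE 0.0753, limma adjusted p = 8.64e-06) and HNRNPR, an hnRNP close to SYNCRIP (0.47, SE 0.0586, limma adjusted p = 5.53e-07), were the other most positive differences.

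Between BRD siRNA mix A and mix B, 16 of the 51 genes were higher in mix A and 3 lower, where 25.7% and 24.3% of all tested genes were. It was 13 higher and 7 lower with plain per-million scaling, and 10 and 8 with quantile normalization. HNRNPAB differed most, at 144 and 149 scaled RPM in mix A and 44.5 and 43.9 in mix B (1.71, SE 0.0589, limma adjusted p = 3.56e-15). Each mix was below control siRNA, at 230.3 and 227, mix A by -0.64 (limma adjusted p = 4.2e-09) and mix B by -2.34 (limma adjusted p = 1.18e-17). SRSF4, an SR protein with a long RS domain, had 83.2 and 86.5 in mix A and 62.6 and 58.5 in mix B (0.48, SE 0.0625, limma adjusted p = 1.77e-06). HNRNPH1 was the next, at 991 and 810.1 in mix A and 729 and 661 in mix B (0.37, SE 0.0753, limma adjusted p = 0.000374). The 3 genes lower in mix A were HNRNPDL, a relative of HNRNPD (-0.44, SE 0.0637, limma adjusted p = 8.2e-06), SNRPA (-0.30, SE 0.0691, limma adjusted p = 0.00115) and SF3B6 (-0.22, SE 0.0718, limma adjusted p = 0.0158). Without mix A replicate 2 the count of lower genes became 6.

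By family, 18 of 20 HNRNP, 10 of 11 SNRP, 6 of 11 SRSF and 6 of 9 SF3 genes were higher in DMSO than with control siRNA, where 28.7% of all tested genes were. The SRSF split was 3 higher and 3 lower with quantile normalization and 3 and 2 with plain per-million scaling, while 13 and 16 HNRNP genes were higher under these settings. HNRNPD, which binds AU-rich elements of mRNA, had 52.8 and 45.9 scaled RPM with DMSO, against 31.7 and 26.2 with control siRNA (log2 fold change 0.75, SE 0.0908, limma adjusted p = 7.46e-07). SNRPA1 (0.74, SE 0.0912, limma adjusted p = 9.83e-07) and SNRPD1 (0.68, SE 0.0758, limma adjusted p = 2.44e-07) came next, with no overlap in any of the 3. With DMSO as the reference for the knockdowns, 47 of the 51 genes were lower after YAP/TAZ siRNA and 3 higher (39.8% and 44.4% of all genes), and 42 were lower after BRD siRNA and 8 higher (39.7% and 39.1%). With quantile normalization, 30 genes were higher in DMSO and 5 lower.

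Other genes of the splicing machinery, grouped in lists from textbook knowledge with earlier results of these data known, were read in the same fits. The genes named have among the largest absolute limma statistics of their list, so they do not stand for the whole list. The shares of all tested genes to set beside their counts are 35.9% lower and 43.1% higher after YAP/TAZ siRNA, 37.6% lower and 37.6% higher after BRD siRNA, and 36.3% lower and 37.6% higher with JQ1. Of 67 other snRNP and spliceosome core genes, 46 were lower and 12 higher after YAP/TAZ siRNA, 34 and 18 after BRD siRNA, and 42 and 10 with JQ1 against DMSO. Examples were PRPF4 of the U4/U6 snRNP (log2 fold change -1.33 after YAP/TAZ siRNA, limma adjusted p = 1.63e-15), CDC5L of the Prp19 complex (-0.99 after BRD siRNA, limma adjusted p = 2.3e-13) and DHX15, a helicase that takes spliceosomes apart (-1.10 with JQ1, limma adjusted p = 2.55e-13). Of 18 tested genes of snRNP assembly and import, 15 were lower and 3 higher after YAP/TAZ siRNA, 13 and 4 after BRD siRNA, and 15 and 1 with JQ1. GEMIN5, the subunit of the SMN complex that binds snRNA, was at -1.76 after YAP/TAZ siRNA (limma adjusted p = 1.63e-15), and WDR77, which helps PRMT5 methylate Sm proteins, at -0.996 with JQ1 (limma adjusted p = 2.13e-12). Among 20 SR protein kinases and SR-related factors the split was more even, 9 lower and 5 higher after YAP/TAZ siRNA, 6 and 8 after BRD siRNA, and 9 and 3 with JQ1. CLK1, a kinase of SR proteins, rose by 0.52 after YAP/TAZ siRNA (limma adjusted p = 5.6e-08) and by 1.14 after BRD siRNA (limma adjusted p = 2.89e-13), and TRA2B, an SR-like factor, fell by 0.83 after YAP/TAZ siRNA (limma adjusted p = 3.29e-13), by 0.79 after BRD siRNA (limma adjusted p = 1.17e-12) and by 0.77 with JQ1 (limma adjusted p = 1.84e-11). Of 38 other hnRNP-like genes and splicing regulators, 24 were lower and 8 higher after YAP/TAZ siRNA, 18 and 11 after BRD siRNA, and 28 and 6 with JQ1. PTBP3, a PTB-family repressor of exons, was at -2.08 after YAP/TAZ siRNA (limma adjusted p = 9.27e-19), RBMX, an hnRNP of the X chromosome, at -1.51 with JQ1 (limma adjusted p = 2.07e-15), and CIRBP, a cold-inducible RNA-binding protein, rose by 1.44 after BRD siRNA (limma adjusted p = 9.09e-17).

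**Figure D5:**
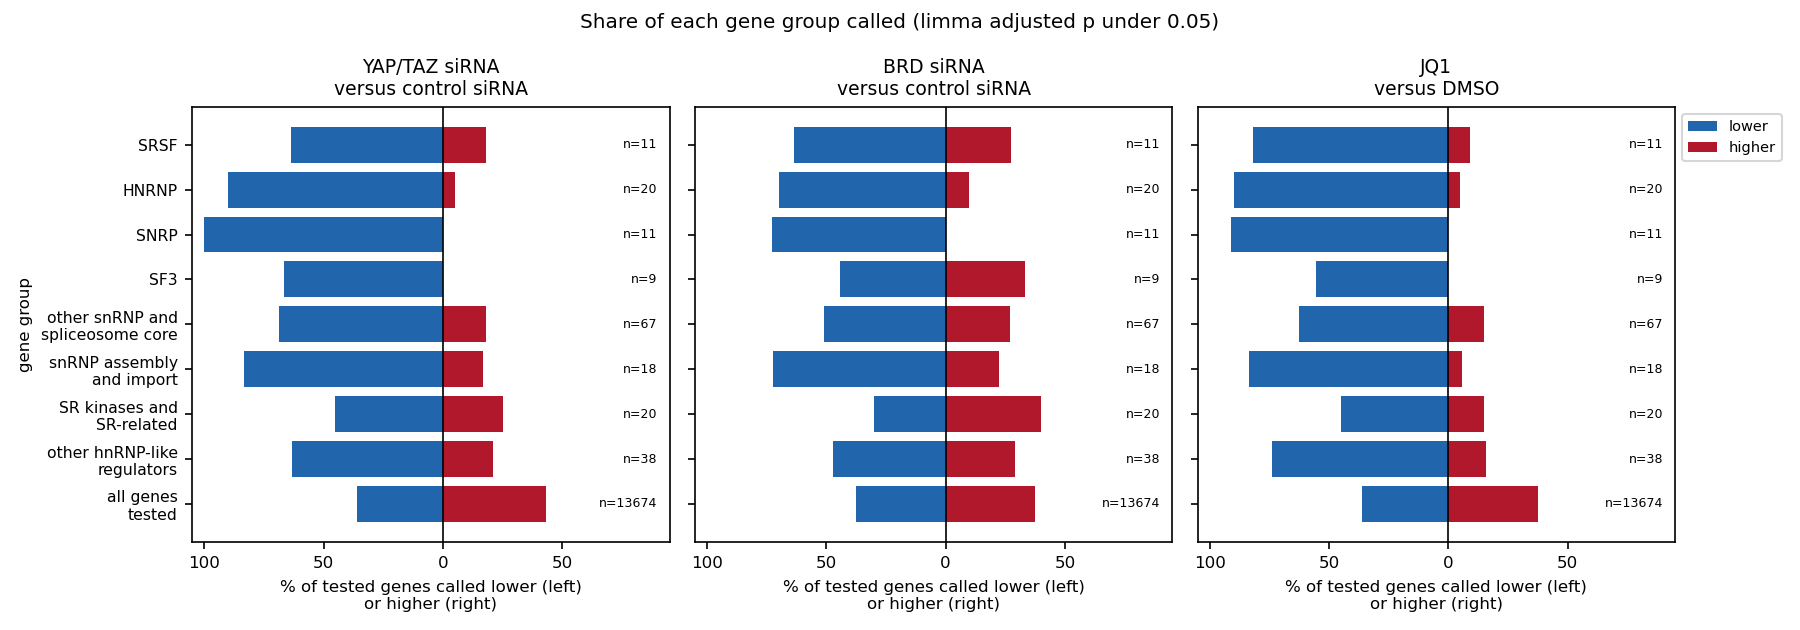
Percent of the tested genes of each gene group (rows, n at the right) that were lower (bars to the left of 0) or higher (to the right) in the 3 comparisons, at a limma adjusted p under 0.05. The lower share exceeds that of all genes tested in the 4 families and in the spliceosome core and assembly lists in each panel, while the SR kinase list after BRD siRNA is 30% lower and 40% higher.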

How the data were processed

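The deposited table gives, for 14 libraries of total RNA, values that its name calls cpm; the column sums differ from 1000000, so the values were taken as a signal, reads per 1000000 of an adjusted library size that the authors set. Whole reads could be recovered for 100% of values at a tolerance of 0.01. The implied scaling factors ran from 0.911 in JQ1 replicate 1 to 1.107 in YAP/TAZ siRNA mix 2 replicate 1. The normalization factors that edgeR gave from the recovered reads were 0.911 and 1.105 for these libraries. The edgeR run therefore used nearly the same scaling and is no separate check of it. Per the submitters' processing notes, R 3.0.0, edgeR, HTSeq 0.6.0, TopHat2 2.0.5 and CASAVA 1.8.4 were used with hg19; annotation and strand setting: not given in the sources used here.

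Values were tested as log2(value + 1) with limma 3.58.1 in R 4.3.3, in 1 model of 7 groups over all 14 libraries, without a replicate block, for the 13674 genes that reached a value of 1 in 2 or more libraries. P-values were Benjamini-Hochberg adjusted over these genes, with a threshold of 0.05. The planned test assumed cpm and needed no change for these values. edgeR 4.0.16 and DESeq2 1.42.0 were run on the recovered reads. The fit was tested on simulated data. Python 3.11.15, pandas 2.3.3, numpy 2.4.6 and scipy 1.17.1 were used for the other steps. Other scalings, filters, pseudocounts, references, single mixes and the omission of each library were tried.

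The members and the lists were chosen with earlier results of these data known. For each family, values in every library are given for up to 2 called members with the largest rise and fall and the 1 with the smallest change. Further comparisons name up to 3 members each way. SF3B1 and HNRNPA1 with JQ1, SNRPD3 and SRSF6 values were added after their values were seen.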

Additional observations from a re-analysis of the deposited data

Results flagged for a closer look

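In 2 genes the YAP/TAZ siRNA mixes differed from control siRNA in opposite directions with both differences past the threshold. HNRNPUL2 was higher in mix 1 (0.31, limma adjusted p = 0.00361) and lower in mix 2 (-0.75, limma adjusted p = 1.23e-07), and the mixes differed by 1.05 on the log2 scale. SF3B5 was lower in mix 1 (-0.17, limma adjusted p = 0.0251) and higher in mix 2 (0.16, limma adjusted p = 0.0363), and the mixes differed by -0.33. SRSF8 also lay above the controls in mix 1 (0.10, limma adjusted p = 0.134) and below them in mix 2 (-0.15, limma adjusted p = 0.0265), but did not pass in mix 1.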

How the results depend on the processing

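Of 47 named values for 29 members, 36 kept their direction and side of the threshold under every setting tried. The cause of the changes listed here was not tested. Lower genes numbered 39 after YAP/TAZ siRNA and 38 after BRD siRNA under plain per-million scaling, and 38 and 36 under quantile normalization. Higher genes after YAP/TAZ siRNA numbered 5 with mix 2 alone. Higher genes with JQ1 numbered 6 under quantile normalization and 8 with control siRNA as reference. Between BRD siRNA mixes, 10 were higher under quantile normalization, and 7 and 8 were lower under plain per-million scaling and quantile normalization. For the JQ1 effect minus the BRD siRNA effect, 5 were higher under upper-quartile scaling and 6 under quantile normalization; minus the YAP/TAZ siRNA effect, 3 were higher under plain per-million scaling. For YAP/TAZ siRNA versus BRD siRNA, 19 were higher under plain per-million scaling and 19 under quantile normalization. Lower genes in DMSO numbered 1, 3 and 5 under upper-quartile, plain per-million and quantile settings. Plain per-million scaling moved the median of all genes by -0.11 for BRD siRNA and by 0.16 for YAP/TAZ siRNA versus BRD siRNA.

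Leaving out 1 library at a time gave 3 to 4 higher and 40 to 42 lower genes for YAP/TAZ siRNA, 8 to 9 and 30 to 33 for BRD siRNA, 2 to 2 and 39 to 42 for JQ1, 12 to 18 and 11 to 15 for YAP/TAZ mix 1 against mix 2, and 11 to 18 and 2 to 6 for BRD mix A against mix B. It gave 2 to 4 and 32 to 39 for JQ1 minus BRD siRNA, 5 to 7 and 13 to 19 for JQ1 minus YAP/TAZ siRNA, 6 to 10 and 28 to 30 for YAP/TAZ siRNA against BRD siRNA, and 36 to 40 and 0 to 0 for DMSO.

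With DMSO as reference, HNRNPA1L2 was at -0.44 after YAP/TAZ siRNA, and SRSF9, SNRPD2 and SF3B5 were at -0.19, -0.48 and -0.29 after BRD siRNA. SNRPD2 after BRD siRNA was at -0.11 under plain per-million scaling, and SF3B5 was at 0.16 in YAP/TAZ siRNA mix 2 alone. With control siRNA as reference, SNRPD2 and SF3B2 were at 0.45 and 0.17 with JQ1. A lone library was assumed to vary like the other groups.

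With the replicate number as a block, 41 genes were lower with JQ1. Deviations of same-numbered libraries had correlations from -0.37 to 0.25 over 21 pairs of groups (median -0.01), above 0.1 in 7 and not in the other 14, so the numbers were not taken to pair the samples.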
